A study of Homo sapiens with 18 samples.

Results

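The early transcript response of BxPC-3 cells to macrophage-stimulating protein (MSP) was measured 1 h after the ligand was added. BxPC-3 is an established cell line derived from a human pancreatic adenocarcinoma. The members were taken by label: the 3 libraries of cells given MSP at 100 ng/ml and the 3 libraries of cells given phosphate-buffered saline as vehicle, all collected at 1 h, which is 6 of the 18 libraries of the series. Every gene that passed a filter on low counts was tested, 16794 of the 58395 gene identifiers in the table. Values are set beside those of 3 further groups of 3 libraries: MSP at 100 ng/ml and vehicle, each at 4 h, and hepatocyte growth factor (HGF) at 80 ng/ml at 1 h. According to the labels all cells were grown in RPMI medium with fetal bovine serum and antibiotics, and no period without serum is named. All results come from this single line. The labels call the samples triplicates and do not say whether they were separate cultures. A p-value here rests on the spread between replicate libraries, estimated jointly over all 18 libraries of the series. That spread may be technical.

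MSP is a secreted protein of the plasminogen-related growth factor family that is made as an inactive precursor and cleaved by serine proteases. It binds RON, a receptor tyrosine kinase of the MET family encoded by MST1R, and the activated receptor recruits adaptors that switch on the RAS and ERK pathway and the phosphatidylinositol 3-kinase and AKT pathway. ERK signalling is known to induce immediate-early genes, many of them through the serum response factor SRF and its partners at CArG boxes in their promoters. AKT signalling keeps FOXO transcription factors out of the nucleus and so lowers transcripts that FOXO factors maintain.

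The 6 libraries held 37953284 to 48477215 counts after MSP and 37450709 to 39542475 counts after vehicle. Levels are given as CPM, the counts of a gene relative to the scaled total of its library. Where a gene had no count, a level of 3 counts cannot be told from it, which is 0.0619 to 0.0801 CPM of the library total and covers counting error only. The share of mitochondrially encoded transcripts was 9.13 ± 0.192% after MSP and 9.18 ± 0.236% after vehicle (SD, n = 3 each, exact permutation p = 0.9, where 3 against 3 cannot go below 0.1). The MSP libraries were less alike than the vehicle libraries: the chi-square per degree of freedom between pairs was 6.62, 9.32 and 18.33 after MSP, against 3.49 to 4.99 after vehicle. The highest of these values belongs to MSP replicates 2 and 3. Their deviations from the group mean ran in opposite directions with transcript GC content (r = -0.315 and 0.298 across 16759 genes, which are not independent replicates), whereas the other 4 libraries lay between -0.022 and 0.012. The counts over all genes, over the immediate-early, ERK feedback and FOXO lists, and over the genes that rose are given with and without these libraries. The number higher in the EGF-family, cytokine, SRF and YAP, and TGF-beta lists was the same without either of them. Of 9 ductal epithelial markers all were detected, with a summed level of 6544 to 6845 CPM after MSP and 6408 to 6555 CPM after vehicle. SMAD4 and CDKN2A, both known to be deleted in this line, had 0 counts in all 6 libraries. Some genes not known to be deleted, such as IRF9 and PIK3R2, also had 0 counts there, so a 0 may come from how reads were assigned. Fibroblast markers summed to 20.6 to 21.7 CPM after MSP against 19.6 to 22 CPM after vehicle, leukocyte markers to 2.74 to 3.26 against 2.52 to 3.29 CPM, and endothelial markers to 8.96 to 9.85 against 9.18 to 10.2 CPM. None of the other marker lists stood apart in MSP libraries.

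The transcripts of the receptor and its partners did not differ detectably between MSP and vehicle. MST1R, which encodes RON, had 62.1, 57 and 68.4 CPM in MSP libraries, against 61.3, 56.4 and 60.3 CPM in vehicle libraries. The MSP and vehicle values overlapped, and the log2 fold change was 0.07 (SE 0.06, adjusted p = 0.849). MET, the receptor of HGF, had 803, 844 and 792 CPM in MSP libraries, against 842, 812 and 799 CPM in vehicle libraries, and it also overlapped (log2 fold change -0.01, SE 0.04, adjusted p = 0.979). MST1, the gene of MSP itself, was at 1.17, 0.682 and 0.993 CPM in MSP libraries, against 0.951, 0.731 and 0.734 CPM in vehicle libraries. It overlaps APEH and RNF123 on the opposite strand, so its low counts are uncertain. HGF had 0 counts in every MSP library and at most 1 in a vehicle library. None of the 10 tested genes of the RON system passed the test in either direction, among them ST14, encoding the protease matriptase that can cleave the MSP precursor (log2 fold change 0.04), its inhibitor SPINT1 (0.05), and the integrin genes ITGA6 (-0.06), ITGB4 (0.02) and ITGB1 (-0.01). Of 29 adaptors and kinases that carry the receptor signal, such as GRB2, GAB1, SHC1 and AKT1, 0 passed. Their fold changes ran from -0.16 for GAB2 to 0.10 for SHC1, on the log2 scale. Over all genes tested 0.834% were called in either direction, so lists this short would hold few calls or none.

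Across all genes, 131 were higher and 9 lower 1 h after MSP at an adjusted p below 0.05 (quasi-likelihood test of edgeR, Benjamini-Hochberg adjustment), which is 0.78% and 0.0536% of the genes tested. The rises were small. Of the 131 genes 9 were at least 2-fold higher, 21 were 1.5-fold to 2-fold, 60 were 1.2-fold to 1.5-fold and 41 were under 1.2-fold, with a median of 1.28-fold and a lowest value of 1.11-fold. In all 131 genes every MSP library lay above every vehicle library, a pattern found in 7.12% of all genes tested; the calls came from the same libraries, so this is a description only. In all 9 lower genes every MSP library lay below every vehicle library, which 4.39% of genes tested did. Without MSP replicate 2 the counts were 146 higher and 37 lower, and without MSP replicate 3 they were 106 and 5. The count of lower genes was 2 without vehicle replicate 1 and 5 without vehicle replicate 2. The main fit estimated the spread jointly over all 18 libraries, and the MSP libraries at 1 h were less alike than the vehicle libraries at 1 h. With only these 6 libraries in the fit 73 genes were higher, of which 69 were among the 131. Of the 140 called genes 67 lost their call in that fit. The adjusted p of EGR3 was 1.84e-06 there, against 2.24e-16 in the main fit. With an adjustment for GC content, chosen after the difference between these libraries was seen, the counts were 141 higher and 9 lower, and 116 of the 131 higher genes were still called. Of the 140 genes 68 were called in the main analysis and under all 17 alternatives, 66 of them higher and 2 lower. In bulk RNA a change in the share of responding cells and a change of RNA per cell cannot be told apart.

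**Figure D1:**
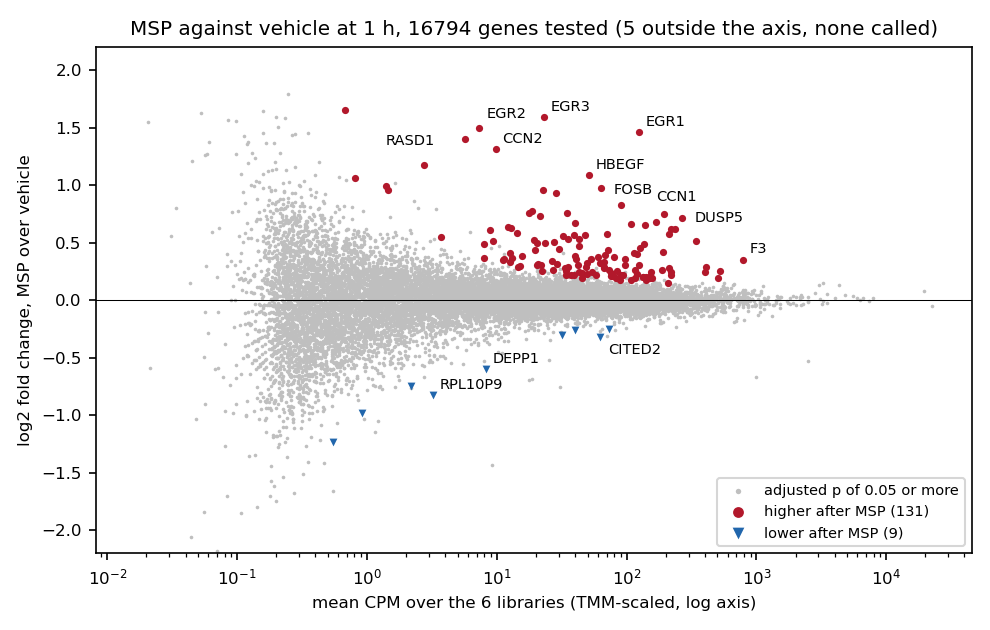
Log2 fold change of MSP over vehicle at 1 h (vertical axis) against the mean CPM of the 6 libraries (horizontal log axis), 1 point per gene tested. The 131 genes called higher (red circles) reach further from 0 than the 9 called lower (blue triangles), and most genes stay close to 0 (the median of the absolute values is 0.074). Of all genes, 5 uncalled ones fall outside the plotted range.

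Immediate-early transcription factors included the largest rises among called genes with a symbol. Of 26 tested, 18 were higher and 0 lower, against 0.78% of all genes, and their median log2 fold change was 0.52, against 0.01 for all genes tested. The lists here and below were chosen with earlier results of these data known, so shares set beside them are descriptions only. The EGR family of zinc finger factors, which are direct targets of ERK signalling, led the list. EGR3 had 32.6, 38.8 and 33 CPM in MSP libraries, against 10.5, 12.6 and 11.4 CPM in vehicle libraries (3.02-fold, log2 fold change 1.59, SE 0.07, adjusted p = 2.24e-16). Each MSP library was more than 2-fold above each vehicle library. EGR1, the best known of the family, had 169, 196 and 182 CPM in MSP libraries, against 57.8, 71.7 and 69.2 CPM in vehicle libraries (2.75-fold, SE 0.09 on the log2 scale, adjusted p = 1.2e-08). Vehicle replicate 1 was the lowest library and MSP replicate 2 the highest, with a wide gap between the groups. EGR2 had 9.5, 11.9 and 10.8 CPM in MSP libraries, against 3.6, 4.07 and 3.67 CPM in vehicle libraries (2.82-fold, adjusted p = 7.94e-13). EGR4, at much lower counts, had 4.16, 3.31 and 3.99 CPM in MSP libraries, against 1.47, 1.8 and 1.82 CPM in vehicle libraries (2.25-fold, adjusted p = 4.6e-06). All 4 EGR genes of the genome were thus called, with no overlap between groups, as in all 131 higher genes. EGR3 shares its locus with the opposite-strand transcript ENSG00000253125, and counts of such pairs are uncertain because it is not known whether reads were counted by strand.

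The promoters of EGR1, EGR2 and SRF are shown because they hold CArG boxes, the textbook site through which ERK signalling reaches immediate-early genes. They were picked for these letters: over both immediate-early lists 4 of the 38 genes with a window held a box, and the windows of FOS, FOSB, JUN, NR4A1 and EGR4 held none. A window covers 250 bases before to 50 after the start, so boxes further out were not searched. EGR2 and SRF also have windows at other annotated starts, which held none, and no window was found for EGR3. The sequences are the 250 bases before the annotated start, 5′ to 3′ on the gene's strand, from RefSeq on GRCh38.p14, with CArG boxes in capitals. EGR1 lies on the plus strand at chr5:138465229-138465478, EGR2 on the minus strand at chr10:62816367-62816616 and SRF on the plus strand at chr6:43171019-43171268. The first bases of the boxes stand at -105 and -83 in EGR1, at -71 in EGR2 and at -30 and -10 in SRF.
EGR1: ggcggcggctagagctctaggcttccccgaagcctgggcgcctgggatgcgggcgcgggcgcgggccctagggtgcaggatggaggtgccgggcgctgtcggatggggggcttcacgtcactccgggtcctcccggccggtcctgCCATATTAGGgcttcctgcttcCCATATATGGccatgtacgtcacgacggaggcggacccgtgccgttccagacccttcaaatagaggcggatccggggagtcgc
EGR2: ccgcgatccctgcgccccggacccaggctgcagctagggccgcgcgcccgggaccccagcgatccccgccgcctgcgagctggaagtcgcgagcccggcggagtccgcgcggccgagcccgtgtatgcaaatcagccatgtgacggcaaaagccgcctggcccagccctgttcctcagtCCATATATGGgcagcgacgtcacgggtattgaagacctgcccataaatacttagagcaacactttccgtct
SRF: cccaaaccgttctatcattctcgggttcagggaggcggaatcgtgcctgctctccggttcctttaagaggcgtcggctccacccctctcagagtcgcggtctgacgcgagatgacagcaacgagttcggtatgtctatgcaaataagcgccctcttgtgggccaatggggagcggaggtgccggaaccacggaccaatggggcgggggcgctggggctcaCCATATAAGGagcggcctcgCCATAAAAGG
Promoter windows of 300 bases (250 before to 50 after the start) were found for 102 of the 131 higher genes. A CArG box, searched on both strands, was in the windows of 5 of these genes (EGR1, EGR2, SRF, MYADM and MIDEAS), 3.45% of their 145 windows, against 1.29% of all 35116 windows in the table and 1.11% of the windows of genes tested. The letters GCGNGGGCG, the motif that EGR proteins bind, were in 22.1% of the windows of the higher genes, against 14.1% of the windows of all genes tested. The cyclic AMP response element TGACGTCA was in 5.52% against 2.77%, the AP-1 motif TGANTCA in 8.28% against 5.8% and the ETS motif CCGGAAG in 11% against 15.8%. Higher genes were also richer in GC than the genes tested, with a median transcript GC content of 56.7% against 48.2%, and the part of GC content in these shares was not tested. A match describes the letters in the window and does not show a bound site.

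SRF itself, the factor that binds the CArG box, was among the smaller rises. SRF had 92.7, 91.1 and 97.7 CPM in MSP libraries, against 84.2, 81.9 and 83.5 CPM in vehicle libraries (1.13-fold, adjusted p = 0.0336). The groups did not overlap, but the step between the lowest MSP and the highest vehicle library was 91.1 against 84.2 CPM. Its call was lost in 9 of 17 alternatives, among them each that left out a vehicle library, with a largest adjusted p of 0.365.

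The AP-1 subunits formed the next group. FOSB had 82, 84 and 84.7 CPM in MSP libraries, against 38.5, 43.8 and 45.2 CPM in vehicle libraries (1.97-fold, SE 0.05 on the log2 scale, adjusted p = 4.48e-14). FOS had 30.5, 30.7 and 28.4 CPM in MSP libraries, against 15.1, 16.1 and 15.1 CPM in vehicle libraries (1.94-fold, adjusted p = 1.42e-08). In both genes the lowest MSP library was at least 1.5-fold above the highest vehicle library. FOSL1 had 109.8, 119 and 118 CPM in MSP libraries, against 57.5, 69.4 and 68.8 CPM in vehicle libraries (1.77-fold, adjusted p = 2.83e-06). JUN was 1.58-fold higher at 133 ± 5.01 CPM after MSP and 84.1 ± 4.0 CPM after vehicle, and JUNB was 1.49-fold higher at 254 ± 4.32 and 170.4 ± 3.15 CPM (SD, n = 3 each). The remaining AP-1 members JUND (0.14), FOSL2 (0.08) and ATF3 (0.17) were not called, these values being log2 fold changes. FOSB overlaps ERCC1 and JUNB overlaps HOOK2 on the opposite strand.

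Orphan nuclear receptors and other factors were also higher. NR4A1 had 37.7, 35.7 and 38.4 CPM in MSP libraries, against 17.2, 20.4 and 20.9 CPM in vehicle libraries (1.91-fold, adjusted p = 2.18e-08). NR4A3 was scarce, with 2.01, 1.92 and 1.84 CPM in MSP libraries, against 1.21, 0.975 and 0.806 CPM in vehicle libraries (1.94-fold, adjusted p = 0.00173). NR4A2, the third member of the family, was not called (log2 fold change 0.12). CSRNP1, a nuclear protein induced by AXIN1, had 20.6, 22.9 and 23.2 CPM in MSP libraries, against 12.5, 14.6 and 12.2 CPM in vehicle libraries (1.69-fold). MYC, the growth-promoting factor, was at 146 ± 6.51 CPM after MSP and 107 ± 0.289 CPM after vehicle (SD, n = 3 each), 1.37-fold higher with an adjusted p of 5.11e-08. KLF10 was 1.4-fold higher, the small MAF protein gene MAFF 1.47-fold, the repressor BHLHE40 1.21-fold and the Notch target HES1 1.19-fold. KLF2 (0.47), KLF4 (0.00), KLF6 (-0.09) and NFIL3 (-0.11, all log2 fold changes) were not called.

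Of 23 tested immediate-early genes that do not encode transcription factors 12 were higher and 0 lower, against 0.78% and 0.0536% of all genes. Their median log2 fold change was 0.21. RASD1, a RAS-related GTPase, had 8.19, 8.06 and 8.57 CPM in MSP libraries, against 3.03, 3.68 and 2.68 CPM in vehicle libraries (2.64-fold, adjusted p = 6.66e-11). CCN2, connective tissue growth factor, had 13.6, 15.2 and 13.2 CPM in MSP libraries, against 4.78, 6.14 and 5.95 CPM in vehicle libraries (2.48-fold, adjusted p = 6.77e-08), and its relative CCN1 had 239, 253 and 241 CPM in MSP libraries, against 142, 146 and 147 CPM in vehicle libraries (1.69-fold). In these 3 genes the MSP and vehicle libraries were far apart. ZFP36, which encodes the RNA-destabilising protein tristetraprolin, had 83.5, 82.4 and 88.7 CPM in MSP libraries, against 54.7, 59.4 and 57 CPM in vehicle libraries (1.49-fold). IER3 (1.35-fold), IER2 (1.31-fold), the eIF2α phosphatase subunit gene PPP1R15A (1.28-fold), the kinase gene PLK3 (1.26-fold), the pseudokinase gene TRIB1 (1.26-fold), RHOB (1.21-fold), BTG2 (1.16-fold) and IER5 (1.13-fold) had smaller rises. SGK1, PLK2, PER1 and PTGS2, which is the gene of cyclooxygenase-2, were among the 11 not called, with log2 fold changes of -0.06, -0.01, 0.07 and 0.15. The log2 fold changes of the 23 genes ran from -0.8 to 1.40, and 20 were above 0. In 14 of the 23 every MSP library lay above every vehicle library, and in 1 every MSP library lay below. Over both immediate-early lists 30 of 49 genes were higher, against 0.78% of all genes. The median over these 49 genes of the log2 ratio to the vehicle mean (pseudocount 0.1 CPM) was 0.26, 0.34 and 0.28 in the 3 MSP libraries, and -0.02, 0.04 and -0.03 in the vehicle libraries. With MSP replicate 2 or 3 left out, 18 and 17 of the 26 factors and 11 of the 23 other genes in each case were called higher.

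**Figure D2:**
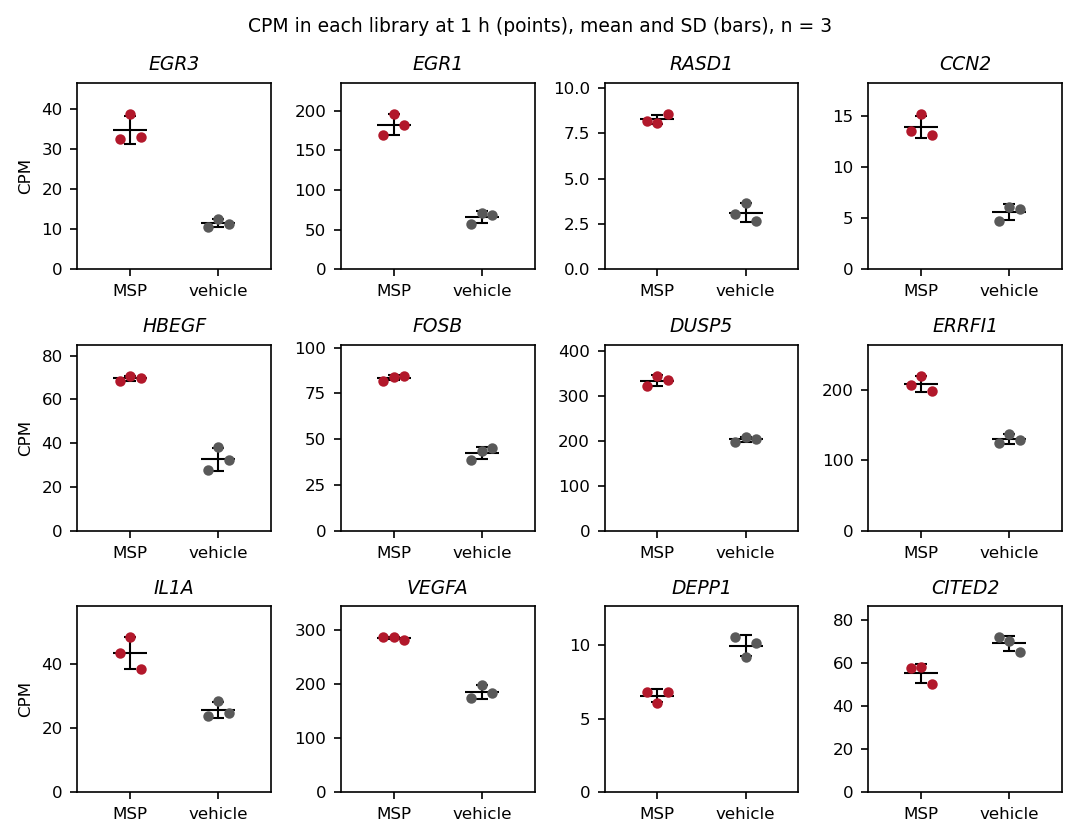
CPM of 12 genes in each of the 3 MSP and 3 vehicle libraries at 1 h (points), with the mean (line) and SD (bars), each axis starting at 0. In every panel the MSP points lie apart from the vehicle points, above them for 10 genes (EGR1 at 169 to 196 against 57.8 to 71.7 CPM) and below them for DEPP1 and CITED2.

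Genes listed under ERK feedback and attenuation were also higher in part. The list is not confined to inhibitors of ERK signalling. It also holds the EGR corepressor gene NAB2 and the ERK-dependent factor genes ETV4 and ETV5. Of 26 tested in the list of ERK feedback and attenuation 10 were higher and 0 lower, against 0.78% and 0.0536% of all genes. Their median log2 fold change was 0.15. DUSP2, a nuclear phosphatase of ERK, was at low counts with 2.07, 1.72 and 1.77 CPM in MSP libraries, against 1.13, 0.951 and 0.734 CPM in vehicle libraries (1.99-fold, adjusted p = 0.00187). DUSP5, also nuclear, had 322, 346 and 336 CPM in MSP libraries, against 197, 209.6 and 204 CPM in vehicle libraries (1.64-fold, adjusted p = 7.49e-12), and the cytoplasmic ERK phosphatase DUSP6 had 267, 286 and 250.2 CPM in MSP libraries, against 173, 178 and 171 CPM in vehicle libraries (1.54-fold, adjusted p = 1.47e-11). All 3 phosphatase genes had separate groups, as had all 131 higher genes. DUSP2 rested on the fewest counts, and its call was lost when only these 6 libraries were fitted (adjusted p = 0.0541). SPRY4, an inhibitor of receptor tyrosine kinase signalling, had 23.1, 24.4 and 22.7 CPM in MSP libraries, against 11.7, 15.1 and 14.1 CPM in vehicle libraries (1.71-fold). ERRFI1, which binds and inhibits the EGF receptor, had 207, 220.2 and 198 CPM in MSP libraries, against 124, 138 and 129 CPM in vehicle libraries (1.6-fold, adjusted p = 8.71e-12). EPHA2, an ephrin receptor gene, was 1.43-fold higher, the imprinted gene PHLDA2 1.42-fold, the cytokine signalling suppressor SOCS3 1.29-fold, DUSP4 1.19-fold and NAB2, a corepressor of EGR proteins, 1.18-fold. The other Sprouty genes SPRY1 and SPRY2 (-0.11 and 0.14 on the log2 scale), the phosphatase gene DUSP1 (0.17) and the ERK-dependent ETS factors ETV4 (0.02) and ETV5 (-0.09) were not called. The count was 10 without MSP replicate 2, 11 without MSP replicate 3 and 6 when only these 6 libraries were fitted. SPRY4, ERRFI1 and DUSP6 each overlap a transcript on the opposite strand.

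Of 7 EGF-family ligands tested, 3 were higher, against 0.78% of all genes. HBEGF, heparin-binding EGF-like growth factor, had 68.4, 70.9 and 69.6 CPM in MSP libraries, against 27.7, 38.1 and 32.3 CPM in vehicle libraries (2.13-fold, adjusted p = 1.44e-08). AREG, amphiregulin, had 48.2, 49 and 44.6 CPM in MSP libraries, against 30.2, 34.9 and 30.8 CPM in vehicle libraries (1.48-fold, adjusted p = 5.36e-07) and EREG, epiregulin, had 50.7, 57.7 and 42.8 CPM in MSP libraries, against 35.7, 36.1 and 32.8 CPM in vehicle libraries (1.44-fold, adjusted p = 2.49e-05). The groups did not overlap in any of the 3, as in all 131 higher genes, and EREG had the widest spread among MSP libraries. TGFA (0.15), NRG1 (0.17), NRG4 (0.03) and BTC (-0.19) were not called, these being log2 fold changes.

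Of 21 cytokine and NF-kB genes 3 were higher, against 0.78% of all genes. IL1A, interleukin-1 alpha, had 43.4, 48.4 and 38.3 CPM in MSP libraries, against 23.8, 28.5 and 24.7 CPM in vehicle libraries (1.69-fold, adjusted p = 3.38e-06). LIF, leukemia inhibitory factor, had 10.3, 10.9 and 11 CPM in MSP libraries, against 6.63, 7.58 and 6.85 CPM in vehicle libraries (1.53-fold), and IL1B had 10.1, 12.4 and 10.7 CPM in MSP libraries, against 8.36, 7.95 and 6.87 CPM in vehicle libraries (1.43-fold, adjusted p = 0.00502). All 3 encode secreted cytokines, and their groups did not overlap, as in all 131 higher genes. The call of IL1B was lost in 2 of 17 alternatives, when only these 6 libraries were fitted and without vehicle replicate 3 (largest adjusted p = 0.0804). Of the 21 members 18 had a log2 fold change above 0, as had 8894 of all 16794 genes tested. In 7 members every MSP library lay above every vehicle library, which 7.12% of all genes did. CCL20, a chemokine gene, had 1.09, 0.834 and 1.16 CPM in MSP libraries, against 0.617, 0.756 and 0.663 CPM in vehicle libraries without overlap and did not pass (log2 fold change 0.61, adjusted p = 0.313). Other members that did not pass had log2 fold changes of 0.01 for NFKBIA, 0.14 for TNFAIP3, -0.02 for BIRC3 and 0.08 for ICAM1. CXCL8 had 9.31, 8.34 and 6.32 CPM in MSP libraries, against 5.89, 6.78 and 7.32 CPM in vehicle libraries, which overlapped (log2 fold change 0.27, adjusted p = 0.57).

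Of 14 angiogenic growth factors 2 were higher, VEGFA and PDGFB, against 0.78% of all genes. The count was also 2 without MSP replicate 2, and it was 3 without MSP replicate 3. VEGFA had 287, 287 and 283 CPM in MSP libraries, against 174, 198 and 185 CPM in vehicle libraries (1.54-fold, adjusted p = 2.68e-10). PDGFB had 15.1, 14.9 and 14.5 CPM in MSP libraries, against 9.18, 10.7 and 8.74 CPM in vehicle libraries (1.56-fold, adjusted p = 7.28e-07). The lowest MSP library was 1.35-fold or more above the highest vehicle library in each. Of 14 TGF-beta and SMAD targets 2 were higher, against 0.78% of all genes. Among them was ID1, an inhibitor of basic helix-loop-helix factors, with 169.9, 171 and 168 CPM in MSP libraries, against 107, 106 and 111 CPM in vehicle libraries (1.57-fold, adjusted p = 2.97e-11). GDF15, a divergent member of the TGF-beta family that stood in none of the lists, had 27.2, 24.6 and 28.2 CPM in MSP libraries, against 15.3, 16.3 and 16.6 CPM in vehicle libraries (1.66-fold, adjusted p = 4.95e-08).

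The median log2 fold change of 23 SRF, YAP and cytoskeletal genes was 0.08. Among them 5 were higher and 0 lower, against 0.78% and 0.0536% of all genes. Beside CCN1 and CCN2 they were ANKRD1 (1.6-fold), AMOTL2 (1.33-fold) and F3 (1.28-fold), the last encoding tissue factor. AMOTL2, an angiomotin that restrains YAP, had 126, 127 and 138 CPM in MSP libraries, against 98.3, 98 and 97.7 CPM in vehicle libraries. The structural members were not called, for example ACTB at 0.15, VCL at 0.00, FLNA at 0.03 and TPM1 at 0.07 on the log2 scale. Of 11 mRNA decay factors 5 were higher, against 0.78% of all genes. ZC3H12A, the endonuclease regnase-1, had 56.8, 53.5 and 60.5 CPM in MSP libraries, against 35.8, 39.4 and 39.8 CPM in vehicle libraries (1.49-fold), and ZFP36L1, a relative of tristetraprolin, had 447, 475 and 424 CPM in MSP libraries, against 372, 365 and 364 CPM in vehicle libraries (1.22-fold, adjusted p = 5.51e-05). TOB1 (1.15-fold) and BTG2 were the others beside ZFP36. This count was 4 without MSP replicate 2, 5 without MSP replicate 3 and 3 without vehicle replicate 3.

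Of 19 proteases and inhibitors of invasion 4 were higher, against 0.78% of all genes, and 3 of the 4 are described here. SERPINB2, plasminogen activator inhibitor-2, had 32.7, 32.6 and 31.2 CPM in MSP libraries, against 25.7, 27.1 and 24.9 CPM in vehicle libraries (1.24-fold), and PLAUR, the urokinase receptor, had 23.7, 22.3 and 22 CPM in MSP libraries, against 17.8, 19.2 and 18 CPM in vehicle libraries (1.24-fold, adjusted p = 0.00664). PLAU, urokinase itself, was 1.17-fold higher. The matrix metalloprotease genes MMP1 (-0.04), MMP7 (0.19), MMP9 (-0.01) and MMP14 (0.01) were not called, these values being log2 fold changes. The call of PLAUR was lost in 5 of 17 alternatives and that of SERPINB2 in 2, and the list gave 1 call when only these 6 libraries were fitted, 1 without vehicle replicate 3 and 2 without MSP replicate 1. SERPINB2 overlaps SERPINB10 on the same strand.

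A single member was higher in the mesenchymal and in the heat shock list, against 0.78% of all genes. SNAI2, the transcriptional repressor Slug, had 133, 150.2 and 127 CPM in MSP libraries, against 114, 112 and 107 CPM in vehicle libraries (1.24-fold, adjusted p = 0.000126) among 10 mesenchymal genes, where the log2 fold change was 0.27 for VIM and -0.10 for FN1, neither called. DNAJB1, an HSP40 cochaperone, had 142, 139.8 and 146 CPM in MSP libraries, against 125, 125 and 123 CPM in vehicle libraries (1.15-fold, adjusted p = 0.00548) among 13 heat shock genes. When only these 6 libraries were fitted both calls were lost (adjusted p = 0.061 for SNAI2 and 0.146 for DNAJB1). The call of DNAJB1 was also lost without vehicle replicate 3. Over all genes tested 0.834% were called in either direction. The lists of epithelial junction genes (16 tested), G1/S and replication (20), G2/M (18), interferon response (15) and housekeeping genes (15) had 0 calls in either direction. Their median log2 fold changes lay between -0.02 and 0.04, with CDH1, the gene of E-cadherin, at -0.02 and CCND1, cyclin D1, at 0.02.

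**Figure D3:**
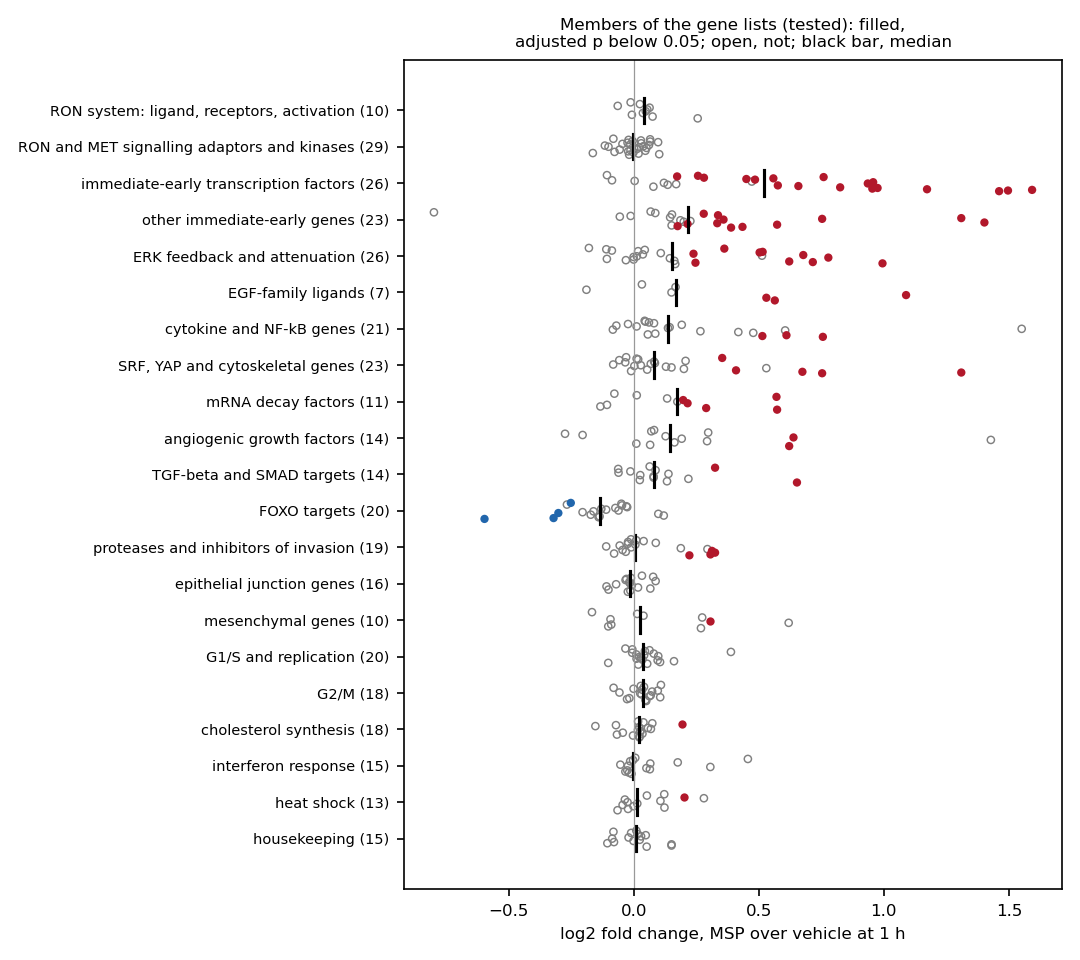
Log2 fold change of MSP over vehicle at 1 h (horizontal axis) for the tested members of each gene list (rows, number tested in parentheses), filled where the adjusted p was below 0.05 (red higher, blue lower), open otherwise, with the median as a black bar. The immediate-early transcription factors reach furthest to the right (18 of 26 members higher), and of the other immediate-early genes 12 of 23 were higher. FOXO targets are the only list shown with members called lower (4 of 20).

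The lower genes were few. Of 20 tested FOXO targets 4 were lower and 0 higher, against 0.0536% of all genes lower. Of the 20, 18 had a log2 fold change below 0, with a median of -0.13. Over all genes tested, 8894 of 16794 had a log2 fold change above 0. DEPP1, a target of FOXO factors that promotes autophagy, had 6.8, 6.09 and 6.83 CPM in MSP libraries, against 10.5, 9.19 and 10.2 CPM in vehicle libraries (0.661 of the vehicle level, log2 fold change -0.60, SE 0.10, adjusted p = 0.000529). CITED2, a CBP and p300 interacting coregulator, had 57.4, 58 and 50.2 CPM in MSP libraries, against 72, 70.1 and 64.8 CPM in vehicle libraries (log2 fold change -0.32, SE 0.05, adjusted p = 0.000393). In both genes every MSP library lay below every vehicle library, as in all 9 lower genes, and both were called under all 17 alternatives. ARRDC3, an arrestin-domain adaptor, had 29.2, 32 and 24.8 CPM in MSP libraries, against 37.5, 35.2 and 33.4 CPM in vehicle libraries (log2 fold change -0.30, adjusted p = 0.0456), and SOX4, a developmental transcription factor, had 66.2, 73.9 and 59.6 CPM in MSP libraries, against 82.4, 78.1 and 77.4 CPM in vehicle libraries (log2 fold change -0.25, adjusted p = 0.0368). The nearest libraries of the groups were 32 and 33.4 CPM for ARRDC3 and 73.9 and 77.4 CPM for SOX4, and the calls were lost in 8 and 10 of the 17 alternatives. CDKN1B, the cell-cycle inhibitor p27, had 58.5, 62.4 and 47.6 CPM in MSP libraries, against 69.1, 68.1 and 65.8 CPM in vehicle libraries and did not pass (log2 fold change -0.27, adjusted p = 0.233). TXNIP (-0.17), PIK3IP1 (-0.14) and BCL6 (-0.14) were not called either. The count was 5 of 20 without MSP replicate 2, and 2 of 20 without MSP replicate 1, without MSP replicate 3 or without any one of the vehicle replicates. MSP replicate 3 was the lowest MSP library for ARRDC3, SOX4, CITED2 and CDKN1B.

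Of the 5 lower genes with a promoter window, 2 held the FOXO core motif GTAAACA on either strand, in 2 of their 8 windows, against 3.42% of all windows in the table and 2.77% of the windows of genes tested. These promoters are shown because DEPP1 and ARRDC3 carry that motif, here in capitals (TGTTTAC is its reverse complement). Both lie on the minus strand, ARRDC3 at chr5:91380098-91380347 and DEPP1 at chr10:44978810-44979059 (RefSeq, GRCh38.p14, 250 bases before the start), with the first base of the motif at -29 and -180. The window at the other annotated start of ARRDC3 held no such motif. With so few genes the share describes these windows and no more.
ARRDC3: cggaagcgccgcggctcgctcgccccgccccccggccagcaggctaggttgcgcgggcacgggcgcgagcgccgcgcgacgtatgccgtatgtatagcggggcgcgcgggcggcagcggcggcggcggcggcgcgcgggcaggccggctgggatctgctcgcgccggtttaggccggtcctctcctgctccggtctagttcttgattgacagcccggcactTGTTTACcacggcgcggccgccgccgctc
DEPP1: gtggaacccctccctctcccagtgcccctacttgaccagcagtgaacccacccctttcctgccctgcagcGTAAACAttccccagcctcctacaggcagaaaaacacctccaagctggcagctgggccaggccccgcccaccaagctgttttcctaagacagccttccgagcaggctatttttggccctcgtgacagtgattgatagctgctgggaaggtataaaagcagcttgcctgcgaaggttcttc
Outside the FOXO list, FOXA1, a pioneer factor of epithelial enhancers, had 39.6, 37.1 and 33.3 CPM in MSP libraries, against 46.9, 40.9 and 43.9 CPM in vehicle libraries (log2 fold change -0.26, adjusted p = 0.0401), and its call was lost in 7 of 17 alternatives. The other lower genes were RPL10P9, with 2.33, 2.12 and 2.57 CPM in MSP libraries, against 4.73, 3.34 and 4.41 CPM in vehicle libraries (adjusted p = 0.00585), CDC42P6, with 1.6, 1.59 and 1.67 CPM in MSP libraries, against 3.06, 2.46 and 2.63 CPM in vehicle libraries, PTENP1 and ENSG00000265496, the last 2 named here after their values were seen. RPL10P9, CDC42P6 and PTENP1 are pseudogenes that can share reads with their parent genes, so these values are uncertain. ARRDC3, SOX4, FOXA1 and DEPP1 each overlap a transcript on the opposite strand.

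Of the 131 higher genes 69 stood in none of the lists, and those named in this paragraph were chosen after their values were seen. They included regulators of the cell cycle such as CDKN1A, the gene of p21 (137 ± 3.02 CPM after MSP and 104 ± 3.48 CPM after vehicle, SD, n = 3 each, 1.32-fold) and SERTAD1 (1.44-fold). The NF-kB regulators BCL3, a nuclear IkB protein (1.39-fold), and MAP3K14, the kinase NIK (1.43-fold), rose as well. So did the effectors of the GTPase CDC42, CDC42EP2 (1.54-fold) and CDC42EP1 (1.26-fold). Chromatin and transcription regulators were KDM6B, a histone H3 lysine demethylase (1.28-fold), MXD1, an antagonist of MYC (1.29-fold), MAFK (1.21-fold) and RARA, a retinoic acid receptor (1.2-fold). DUSP7, a cytoplasmic ERK phosphatase outside the feedback list, was 1.2-fold higher. Adhesion and cytoskeletal genes were ZYX, the gene of zyxin (1.2-fold), TNS4 (1.18-fold) and BCAR1 (1.16-fold). The called transcript with the largest fitted rise was ENSG00000230177, an antisense gene. It had 0.997, 1.44 and 0.678 CPM in MSP libraries, against 0.231, 0.366 and 0.379 CPM in vehicle libraries and is uncertain. A tested gene on the other strand overlaps 34 of the 131 genes, and 5 have a tested gene over them on their own strand.

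The higher genes had shorter spans than the genes tested as a whole. Of the 131, 128 were protein-coding. Their median genomic span was 10778 bp, against 34180 bp for all 13053 protein-coding genes tested, and 45.3% of them spanned less than 10 kb, against 18.2%. They had a median of 5.5 exon blocks, against 11. Their level after vehicle was higher too, with a median of 44.7 CPM, against 23.7 CPM, and the part of this level in the calls was not tested. These features are given as descriptions without a test.

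HGF, the ligand of MET, was given to cells of another 3 libraries at 1 h, and the difference between MSP and HGF was tested directly, without the vehicle libraries that both responses share. HGF was used at 80 ng/ml and MSP at 100 ng/ml, so the doses differ in mass. Of the 131 genes that rose after MSP, 126 were lower after MSP than after HGF, 0 were higher and 5 did not pass in either direction. Among all genes tested 11.4% were lower and 6.36% higher after MSP than after HGF. Of the 131 genes 125 were lower and 0 higher without MSP replicate 2, and 126 were lower and 1 higher without MSP replicate 3. With library totals in place of scaling factors 125 of the 131 were lower and 3 higher, and this choice moved the median log2 difference of all genes to 0.10 and the calls over all genes to 3112 higher and 1296 lower after MSP, against 1068 higher and 1911 lower with scaling factors. The median log2 fold change of the 131 genes over vehicle was 0.36 after MSP and 1.77 after HGF.

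EGR3 had 32.6, 38.8 and 33 CPM in MSP libraries, against 734, 755 and 758 CPM in HGF libraries (direct log2 difference -4.43, SE 0.06, adjusted p = 5.68e-30). CCN2 had 13.6, 15.2 and 13.2 CPM in MSP libraries, against 234, 227 and 246 CPM in HGF libraries (log2 difference -4.08, SE 0.09). The HGF libraries stood more than 10-fold above the MSP libraries in both genes. The fold change over vehicle was 2.75 after MSP and 15.1 after HGF for EGR1, and 2.13 after MSP and 16.9 after HGF for HBEGF. It was 1.64 after MSP and 9.42 after HGF for DUSP5, and 1.54 after MSP and 4.99 after HGF for VEGFA. MYC was closer, with 139, 151 and 148 CPM in MSP libraries, against 216, 219 and 204 CPM in HGF libraries (log2 difference -0.54, adjusted p = 3.3e-11). The median over the 49 immediate-early genes of the log2 ratio to the vehicle mean was 0.26, 0.34 and 0.28 in MSP libraries and 2.15, 2.18 and 2.12 in HGF libraries. The smallest HGF library was thus far above the largest MSP library on this measure.

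The 5 higher genes without a called difference were MICALL1, GNL3L, NTAQ1, ZBTB45 and ENSG00000230177. MICALL1, an adaptor of endosomal recycling, had 237, 223 and 253 CPM in MSP libraries, against 263, 218 and 235 CPM in HGF libraries (log2 difference -0.01, SE 0.06). For GNL3L and NTAQ1 the log2 differences were 0.15 (SE 0.10) and 0.21 (SE 0.08), and for ZBTB45 0.10 (SE 0.06). A difference that misses the threshold does not show that both ligands act alike on these genes. Of the 9 lower genes 4 were higher after MSP than after HGF and 3 were lower, against 6.36% and 11.4% of all genes. DEPP1 had 6.8, 6.09 and 6.83 CPM in MSP libraries, against 0.923, 1.05 and 1.43 CPM in HGF libraries (log2 difference 2.49, adjusted p = 3.31e-15). ARRDC3 went the other way, with 29.2, 32 and 24.8 CPM in MSP libraries, against 33.8, 36.6 and 33 CPM in HGF libraries (log2 difference -0.26, adjusted p = 0.0118). RPL10P9 and CDC42P6 were also lower after MSP than after HGF (log2 differences -0.81 and -0.55).

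**Figure D4:**
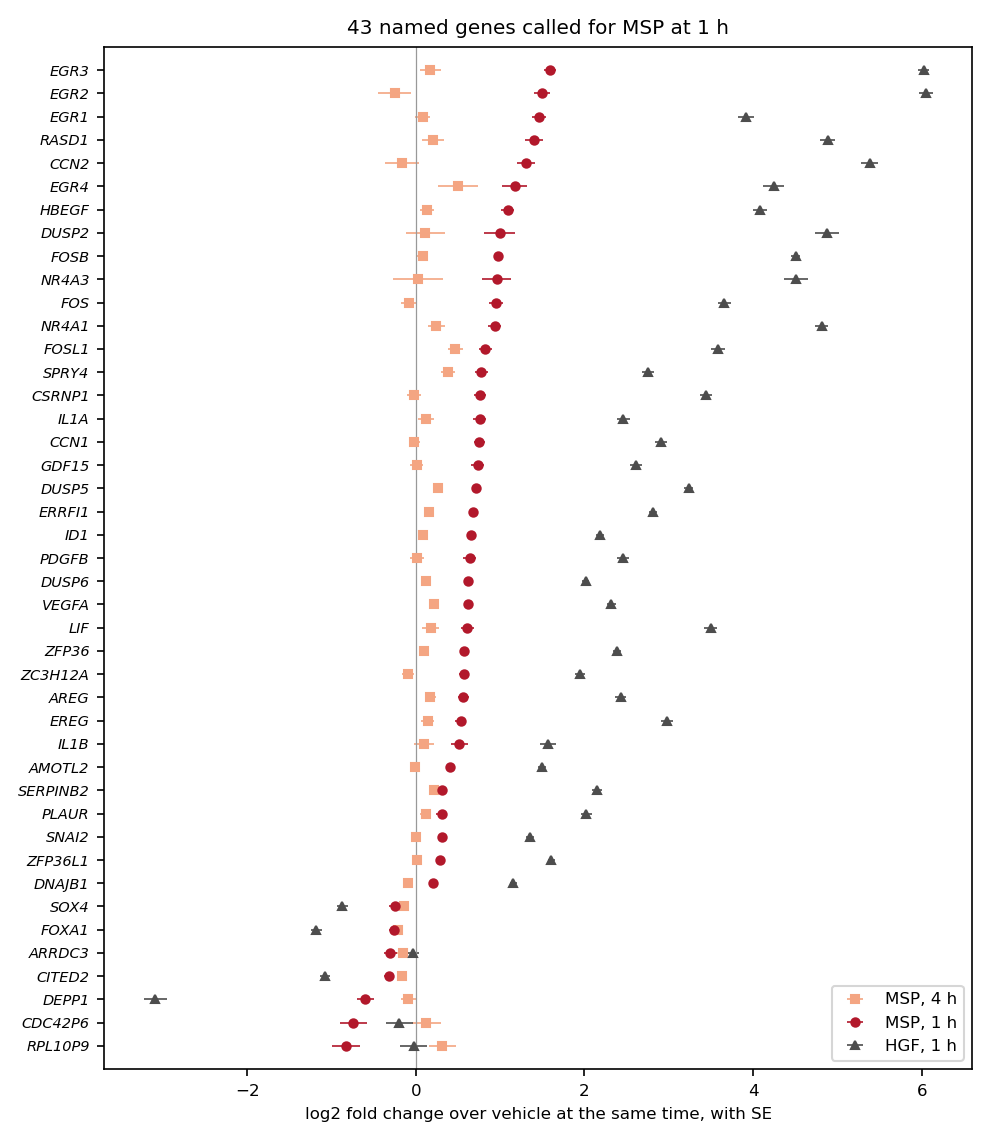
Log2 fold change over the vehicle group of the same time (horizontal axis, bars SE) for 43 of the 45 genes named by the rule and called for MSP at 1 h: MSP at 4 h (light squares), MSP at 1 h (red circles) and HGF at 1 h (dark triangles). MSP at 4 h lies near 0 for most genes (0.17 for EGR3), MSP at 1 h between (1.59 for EGR3) and HGF at 1 h furthest out for all but ARRDC3, CDC42P6 and RPL10P9 (6.02 for EGR3). MSP and HGF at 1 h share their vehicle libraries.

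The response to MSP at 4 h rests on its own vehicle libraries and was compared with that at 1 h by the interaction of treatment and time. Of the 131 higher genes 11 were called higher at 4 h as well, which is 8.4% of the 1 h list and 8.46% of the 130 genes higher at 4 h, against 0.774% of all genes called higher at 4 h. They were FOSL1, SPRY4, DUSP5, VEGFA, MAFF, MYADM, ZYX, TNFRSF10A, MALL, LRRC8A and HS3ST1. The median log2 fold change of the 131 genes was 0.07 at 4 h and 0.36 at 1 h. The 131 genes were picked by their 1 h difference, which the interaction test also contains, so the medians and counts are descriptions only. The response was lower at 4 h than at 1 h in 44 of the 131 genes by the interaction test, and in 46 genes (0.274%) of all tested. Without MSP replicate 2 at 1 h it was lower in 45 of the 131, and without MSP replicate 3 in 47. EGR3 had 2.9, 2.87 and 3.59 CPM in MSP libraries at 4 h, against 2.84, 2.53 and 2.92 CPM in vehicle libraries at 4 h. These groups overlapped, and the log2 fold change was 0.17 at 4 h and 1.59 at 1 h (difference -1.42, SE 0.14, adjusted p = 6.46e-07). EGR2 and EGR1 had differences of -1.75 and -1.38, RASD1 of -1.19, CCN2 of -1.48 and HBEGF of -0.96, all called. The mean vehicle level also differed between the times. For EGR3 it was 11.5 CPM at 1 h and 2.76 CPM at 4 h, and for CCN2 5.62 and 1.89 CPM. For EGR1 it was 66.2 and 49.5 CPM, while ZFP36 went the other way with 57 and 61.7 CPM. The part of this shift in the difference between times was not tested.

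FOSL1 was called at both times, with 39.2, 44.2 and 43.9 CPM in MSP libraries at 4 h, against 35.3, 29 and 27.7 CPM in vehicle libraries at 4 h. Its log2 fold change was 0.47 at 4 h (adjusted p = 0.0139) and 0.83 at 1 h, and the difference was not called (-0.36, adjusted p = 0.337). DUSP5 was called at both times (0.26 at 4 h and 0.72 at 1 h) and its response was lower at 4 h (difference -0.46, adjusted p = 0.000142). The log2 fold changes of MYADM, a membrane protein gene, and ZYX were 0.40 at 4 h and 0.37 at 1 h for MYADM, 0.31 at 4 h and 0.26 at 1 h for ZYX. None of the 9 lower genes was called lower at 4 h, against 0.292% of all genes called lower at 4 h. The response was higher at 4 h than at 1 h in 1 of the 9, RPL10P9, against 0.0476% of all genes. These 9 genes were likewise picked by their 1 h difference. The log2 fold change of DEPP1 was -0.09 at 4 h and -0.60 at 1 h, a difference that did not pass (0.51, adjusted p = 0.128), and that of CITED2 was -0.16 at 4 h and -0.32 at 1 h (adjusted p = 0.603). Over the 20 tested FOXO targets the median log2 fold change was -0.156 at 4 h and -0.134 at 1 h. At 4 h 3 of the 20 were called lower and 0 higher. By the interaction test 0 of the 20 differed between the times in either direction.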

How the data were processed

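RNA was sequenced from 18 BxPC-3 libraries in 6 groups of 3. The authors deposited whole-number read counts per gene for every library, with 0 value columns that could not be tied to a sample. Per the labels' protocols, libraries were made with the KAPA mRNA HyperPrep kit and each sample ran on 2 lanes. STAR, featureCounts and Subread are named per the submitters' processing notes, and for the build, annotation and strand setting the sources used here give nothing. Symbols were matched from the identifiers, 41885 of 58395 in all and 15263 of the 16794 tested.

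From these counts, genes were kept by filterByExpr (minimum count 10, minimum total 15), scaled by TMM and fitted over all 18 libraries with edgeR 4.0.16 in R 4.3.3 with limma 3.58.1 (residual df 12, common biological coefficient of variation 5.23%). The quasi-likelihood test was used with robust estimation, Benjamini-Hochberg adjustment over all genes and a threshold of 0.05. CPM values are TMM-scaled. The contrasts were MSP against vehicle at 1 h, MSP against HGF at 1 h, each ligand against vehicle, and the MSP response at 4 h minus that at 1 h. DESeq2 1.42.0 was one of 17 alternatives. Named genes are the 20 largest rises and 6 largest falls among called genes with a symbol, a mean of at least 1 CPM and groups that did not overlap, up to 3 called members with the smallest adjusted p of each of the 26 lists, and MST1R, MST1, MET and HGF. For the difference between times they are the 5 called genes in each direction with the smallest adjusted p and a mean of at least 1 CPM. Other list members are given as examples chosen after their values were seen. The members and lists were chosen with earlier results of these data known. Scripts were tested on simulated data. A few genes that the rule names are not reported here. Promoter sequences are from RefSeq (GRCh38.p14). Floors cover counting error only.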

Additional observations from a re-analysis of the deposited data

Results flagged for a closer look

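The response to MSP differed between 4 h and 1 h by the test of the interaction of treatment and time (quasi-likelihood test of edgeR, Benjamini-Hochberg adjustment), and each gene given here was picked out by that test. It was lower at 4 h in 46 genes and higher in 8. Among the genes with a lower response at 4 h, the difference of the log2 fold changes (4 h minus 1 h) was -0.89 for FOSB (adjusted p = 1.01e-07), -1.42 for EGR3 (adjusted p = 6.46e-07), -0.65 for JUN (adjusted p = 8.94e-07), -0.55 for JUNB (adjusted p = 3.06e-06) and -0.57 for ID1 (adjusted p = 5.72e-06). In all 5 the 1 h rise was called.

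Among the genes with a higher response at 4 h, the difference was 0.45 for LRP8, a lipoprotein receptor gene (log2 fold change 0.38 at 4 h and -0.07 at 1 h), and 0.37 for HAS2, a hyaluronan synthase gene (0.31 at 4 h and -0.06 at 1 h). It was 0.96 for RPL24P4, 1.16 for GAPDHP1 and 1.14 for RPL10P9, which are pseudogenes whose counts can be shared with their parent genes.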

How the results depend on the processing

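For the 45 named genes called at 1 h under 17 alternatives, 718 of 765 values kept their call, 47 lost it and 0 changed sign; 33 genes kept it throughout, and DEPP1 and CITED2 were the only lower genes among them. Over all 140 called genes 68 kept their call in every alternative. The calls of ARRDC3, SOX4 and FOXA1 were lost in 8, 10 and 7 alternatives. Counts for MSP against vehicle (131 higher, 9 lower) were 73 higher with only the groups compared, 32 lower with no low-count filter and 17 lower with DESeq2; leaving out 1 library gave 88 to 146 higher and 2 to 37 lower, with 37 without MSP replicate 2, 5 without MSP replicate 3, 2 without vehicle replicate 1 and 5 without vehicle replicate 2. For MSP against HGF (1068 higher, 1911 lower) library totals gave 3112 higher and 1296 lower, and leaving out 1 library gave 801 to 1101 higher and 1604 to 2002 lower. For the difference between times (8 higher, 46 lower) the counts were 72 and 76 with no low-count filter, 18 higher with only the groups compared, 17 and 89 with the GC adjustment, which was added after seeing the data, and 30 and 72 with DESeq2; leaving out 1 library gave 2 to 22 higher and 34 to 59 lower, with 22 higher without MSP replicate 3 and 2 without MSP replicate 1 at 1 h; the higher count also moved by over 1.5 times without 1 h vehicle replicate 1 or 2 (5 each), 4 h vehicle replicate 3 (4) and 4 h MSP replicate 2 (3). The cause of these shifts was not tested. The samples were not treated as paired, because the labels state triplicates and no pairing. Deviations of same-numbered MSP and vehicle libraries correlated at 0.081, 0.014 and 0.056, each library best with its own number. These values are a hint of pairing from the data and not the design, as is MT2A, highest in replicate 2 of every group. With the replicate number as a block the counts were 136 higher and 8 lower for MSP against vehicle, 1163 and 1995 for MSP against HGF, and 11 and 60 for the difference between times; block and only the groups compared together, added after seeing the data, gave 89 and 12. Depth sets a floor of 3 counts a library; with libraries thinned to the smallest total, 114 of the 131 higher genes were still called.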

Other observations

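MT2A and MT1E, genes of metallothioneins that bind zinc and copper, were highest in the libraries numbered 2. MT2A had 15.3, 35 and 19.1 CPM in MSP libraries at 1 h, against 17.4, 85.1 and 13.6 CPM in vehicle libraries at 1 h. It had 16.6, 60.5 and 18.3 CPM in HGF libraries at 1 h and 14.5, 41.5 and 16.1 CPM in MSP libraries at 4 h, against 13.0, 84.8 and 15.9 CPM in vehicle libraries at 4 h. The replicate numbered 2 was the highest of its group in all of these, and likewise for MT1E. At lower levels MT1F and MT1H had exceptions at 4 h: MT1F was 0.594 CPM in MSP replicate 1 and 0.545 CPM in MSP replicate 2, and MT1H was 0.114 CPM in HGF replicate 1 and 0.0372 CPM in HGF replicate 2. SLC30A1, a zinc exporter gene, had 64.4, 103 and 52.4 CPM in MSP libraries at 1 h, against 75.7, 107 and 61.7 CPM in vehicle libraries at 1 h, with its highest value in replicate 2 of both groups. MT2A was not called between MSP and vehicle at 1 h (log2 fold change -0.76, adjusted p = 0.901).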
